A study of Mus musculus with 16 samples.

Results

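Dendritic cells stimulated through the RNA sensor TLR7 were compared with and without added palmitic acid, the main saturated fatty acid of the diet and of body fat. The comparison uses 8 of the 16 arrays of the series, namely the 4 arrays of cells given imiquimod and palmitic acid (IMQ+PA) and the 4 arrays of cells given imiquimod alone (IMQ). It was fitted on these 8 arrays alone, over all 22180 genes named by a single symbol. All cells were grown from the bone marrow of male C57/B6 mice for 10 days with GM-CSF at 20 ng/ml, a culture that yields dendritic cells together with macrophage-like cells, and were collected after 24 h of treatment. IMQ is read here as imiquimod, a small-molecule agonist of TLR7, and PA as palmitic acid, from knowledge of the study. Palmitic acid was given at 0.5 mM, carried on bovine serum albumin (molar ratio 6), and the labels do not state whether the cells without it received albumin, so the fatty acid and its carrier cannot be told apart. The dose of imiquimod differs between labels in its unit (3 uM or 3 ug/ml). The other 8 arrays, 4 of mock-treated cells and 4 of cells given palmitic acid alone, serve only where the fatty acid is compared with and without imiquimod. The replicates are called biological without a named animal or culture, so each p-value measures the spread between these arrays.

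TLR7 sits in endosomes and signals through MyD88 to NF-kB, MAP kinases and interferon regulatory factors, which switch on cytokines such as IL-12, IL-6 and TNF. Dendritic cells use the secreted cytokines, costimulatory proteins and peptides on MHC molecules to instruct T cells, and IL-23 among these cytokines maintains T cells that make IL-17. A saturated fatty acid such as palmitate enters membranes, triglyceride and sphingolipids, activates PPAR receptors and, in many cells, disturbs the endoplasmic reticulum (ER). The unfolded protein response answers ER stress through 3 sensors. ATF6 and IRE1, which splices Xbp1 mRNA, raise chaperones and secretory machinery, and PERK acts through ATF4 on amino acid supply and on the factor encoded by Ddit3.

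Values are log2 RMA values, one per gene and array, so a difference of 1 is a doubling. Changes are given as IMQ+PA minus IMQ on the log2 scale, with the standard error of the limma fit after ±, n = 4 in each group, and called means an adjusted p (Benjamini-Hochberg, every gene tested) under 0.05. The groups were far apart relative to their spread. Replicate arrays correlated with each other, across genes, at 0.994 to 0.996, and the first principal component of the 8 arrays held 51.4% of the variance, with the IMQ arrays from -23.2 to -17.8 and the IMQ+PA arrays from 18.2 to 24.1. Limma called 3911 of 22180 genes (17.6%), of which 2155 were higher (9.72%) and 1756 lower (7.92%) with palmitic acid. The balance of directions depends on the scaling, since repeated quantile normalization gave 1993 higher and 2056 lower, and equal array medians gave 2202 and 1273. Large rises outnumbered large falls, since 187 called genes rose and 69 fell 2-fold or more. The median change of all genes was -0.02. Of the 8905 genes called dim, with a mean in each group under 4.92 (95% of 1443 sensory receptor genes average less than this), 117 were called higher and 205 lower. Of the other 13275 genes 27% were called and 15.4% were called higher.

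**Figure D1:**
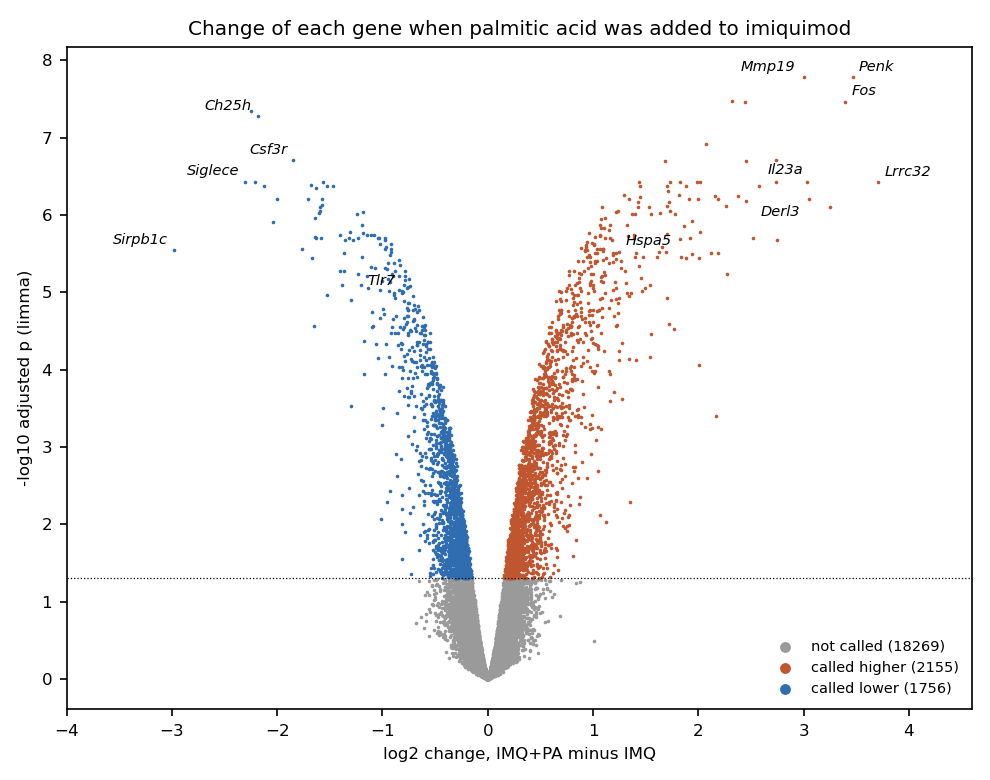
Each point is 1 of 22180 genes, with the log2 change on the horizontal axis and −log10 of the limma adjusted p on the vertical axis (dotted line, adjusted p of 0.05). The 2155 genes called higher reach a change of 3.71 (Lrrc32) and the 1756 called lower reach -2.98 (Sirpb1c).

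The largest rises joined a few immune, signalling and ER genes. Lrrc32, which encodes GARP, a surface protein that tethers latent TGF-beta, read 5.96, 5.72, 5.41 and 5.36 in the IMQ arrays and 9.34, 9.27, 9.44 and 9.23 in the IMQ+PA arrays. The groups did not overlap, and the rise was 13.1-fold (3.71 ± 0.13, limma adjusted p = 3.76e-07). Il23a, the subunit that makes IL-23 when joined to the product of Il12b, read 4.95, 5.07, 5.44 and 5.29 with imiquimod alone and 8.23, 8.17, 8.34 and 8.15 with both agents. That is an 8.21-fold rise (3.04 ± 0.11, adjusted p = 3.76e-07), with the IMQ arrays little above the dim level. Derl3, a derlin that helps pass misfolded proteins out of the ER, read 6.23, 6.12, 6.69 and 6.37 against 9.45, 9.20, 9.49 and 9.47, a rise of 8.27-fold (3.05 ± 0.12, adjusted p = 6.23e-07). Every IMQ+PA array of these 3 genes lay more than 2 log2 units above every IMQ array.

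Among the other genes with the largest rises were Penk, the precursor of enkephalin opioid peptides (3.47 ± 0.07, adjusted p = 1.65e-08), and Fos, a subunit of the transcription factor AP-1, which read 5.23 to 5.53 in the IMQ arrays and 8.73 to 8.90 in the IMQ+PA arrays (3.40 ± 0.08, adjusted p = 3.44e-08). Mmp19, a matrix metalloproteinase, rose from 8.32 to 11.3 (3.00 ± 0.06, adjusted p = 1.65e-08). Csf3, which encodes G-CSF, read 7.57, 7.15, 7.32 and 7.25 and then 10.10, 9.97, 10.19 and 9.98 (2.74 ± 0.09, adjusted p = 3.76e-07). The receptor of that growth factor moved the other way, as given below with the falls. The leptin receptor Lepr (2.74 ± 0.08), the nuclear receptor Nr4a1 (2.58 ± 0.09), the ER prolyl isomerase Fkbp11 (2.52 ± 0.13), the histamine-making enzyme Hdc (2.46 ± 0.10), the plasma membrane calcium pump Atp2b4 (2.45 ± 0.07) and the lipid droplet protein Hilpda (2.44 ± 0.06) also rose. Sptssb, a small subunit of the enzyme that joins serine to palmitoyl-CoA at the start of sphingolipid synthesis, had an IMQ mean of 3.31, below the dim level, and an IMQ+PA mean of 6.57, which is at least 3.13-fold higher (adjusted p = 7.88e-07). For Il2 the means were 2.43 and 5.17, and since the first lies far below the dim level the rise is only bounded as at least 1.19-fold (adjusted p = 2.08e-06).

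**Figure D2:**
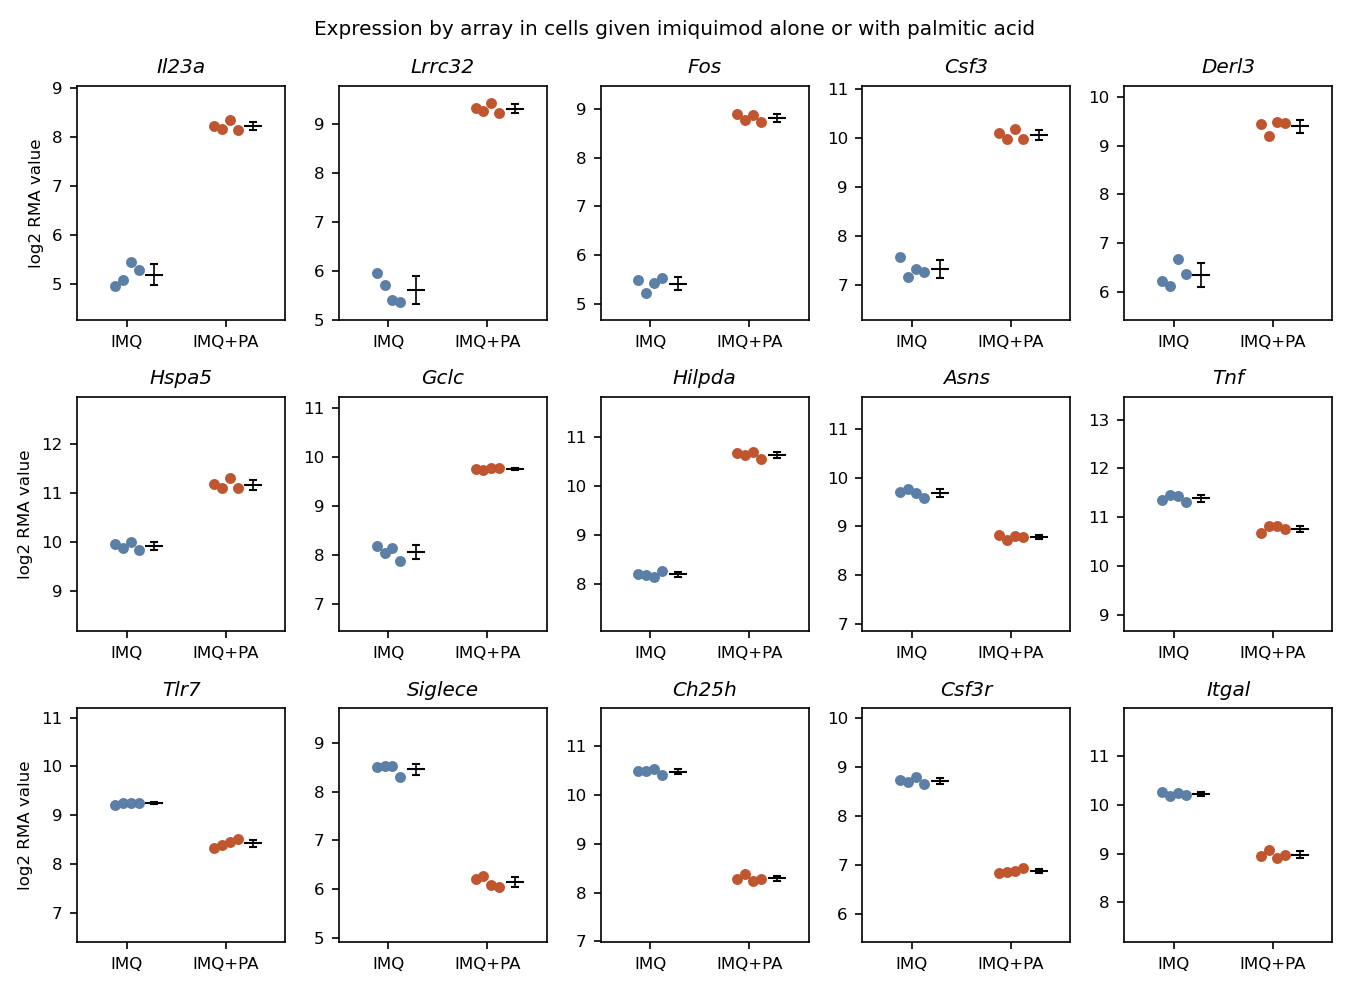
Log2 RMA values of 15 genes, 1 point per array, for the 4 IMQ arrays (blue) and the 4 IMQ+PA arrays (orange), with the mean and SD at the right of each group and axes of equal length. No gene shown has overlapping groups; Il23a moves from 5.19 to 8.22 on average, Asns from 9.69 to 8.78 and Ch25h from 10.5 to 8.29.

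The largest falls were mostly in surface receptors of myeloid cells. Siglece, an inhibitory lectin for sialic acid, read 8.50, 8.52, 8.52 and 8.29 in the IMQ arrays and 6.21, 6.27, 6.09 and 6.05 in the IMQ+PA arrays (-2.30 ± 0.08, adjusted p = 3.72e-07). Sirpb1c (-2.98 ± 0.16) and Sirpb1a (-2.25 ± 0.05), SIRP-beta receptors with near-identical relatives whose signals an array can mix, and Klra2 (-2.12 ± 0.08), a lectin of the Ly49 family with the same limit, also fell. The inhibitory receptors Pirb (-1.71 ± 0.07) and Clec12a (-1.64 ± 0.08) fell too. Ch25h, the enzyme that hydroxylates cholesterol to an oxysterol made during antiviral responses, read 10.49, 10.48, 10.52 and 10.40 and then 8.27, 8.37, 8.24 and 8.28, a fall of 4.54-fold (-2.18 ± 0.05, adjusted p = 5.34e-08). Csf3r, the G-CSF receptor, read 8.74, 8.69, 8.80 and 8.65 against 6.83, 6.84, 6.88 and 6.94 (-1.85 ± 0.05, adjusted p = 1.94e-07), so that ligand and receptor changed in opposite directions with no overlap in either. Prg4, the lubricating glycoprotein of joints (-2.21 ± 0.08), the copper oxidase ceruloplasmin (Cp, from a mean of 9.20 to 7.21), guanine deaminase (Gda, -1.76 ± 0.09), the collagen receptor Gp6 (-1.68 ± 0.06), the nucleoside transporter Slc28a2 (-1.65 ± 0.13) and the adaptor Sla (-1.64 ± 0.07) completed the 15 largest falls together with P2ry13, an ADP receptor that fell at least 4.01-fold to a mean of 4.89, below the dim level.

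Calls among genes of the secretory pathway were nearly all higher. Of 31 measured ER chaperones and disulfide isomerases, 25 were called higher and 2 lower, with a median change of 0.66. Of 51 genes of ER translocation and COPI or COPII transport, 41 were called higher and 0 lower (median 0.33), where 0 lower calls stand beside 10 genes that missed the threshold. Of 30 genes of N-glycan assembly, 20 were higher, 2 lower and 8 not called (median 0.32), and of 31 genes of ER-associated degradation 15 were higher, 1 lower and 15 not called (median 0.16). Each share called higher lies above the 9.72% of all genes and above the 15.4% of all genes that were not dim.

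The master chaperone Hspa5 (BiP), which binds unfolded chains and holds the 3 sensors inactive, read 9.96, 9.88, 10.00 and 9.83 in the IMQ arrays and 11.18, 11.09, 11.31 and 11.10 in the IMQ+PA arrays. It rose 2.38-fold (1.25 ± 0.07, adjusted p = 2.98e-06), with no overlap. Sdf2l1, a partner of BiP, rose by 1.82 ± 0.07 and Creld2, another ER stress protein, by 1.68 ± 0.05 (adjusted p = 5.61e-07 and 1.99e-07). The thioredoxin-like membrane protein Tmx3 was the largest fall of the chaperone list (-0.43 ± 0.05, adjusted p = 0.000563). In transport, the COPII coat subunit Sec24d (0.96 ± 0.05), the retrieval receptor Kdelr3 (0.84 ± 0.06) and the translocon subunit Sec61g (0.82 ± 0.06) led. Enzymes that make the sugar donors of N-glycans led their list, with Pgm3 at 1.09 ± 0.07, Gmppb at 1.01 ± 0.07 and Gfpt1 at 0.81 ± 0.06, whereas the glucosyltransferase Alg8 fell (-0.36 ± 0.07, adjusted p = 0.00753). After Derl3, degradation genes rose less, with the mannosidase-like Edem2 at 0.82 ± 0.05 and the ubiquitin ligase Syvn1 at 0.68 ± 0.06, and Aup1 fell (-0.25 ± 0.05).

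The promoters of 3 of these genes are shown because they hold a known control element of ER stress. The ER stress response element (ERSE) is a spaced pair of short boxes, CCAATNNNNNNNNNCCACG, bound by NF-Y and by ATF6 or spliced XBP1. Windows from 250 bases before to 50 after each RefSeq gene start (GRCm38.p6) were found for 16990 of the 22180 genes and searched for these letters on both strands. The windows of Derl3 (chr10:75893148-75893447, plus strand), Hspa5 (chr2:34771840-34772139, plus strand) and Creld2 (chr15:88819396-88819695, plus strand) are shown 5′ to 3′ on the gene's strand with the matched letters in capitals, and hold them in both orientations. In Derl3 and Creld2 the match reads on the other strand, so it starts CGTGG and ends ATTGG.
Derl3: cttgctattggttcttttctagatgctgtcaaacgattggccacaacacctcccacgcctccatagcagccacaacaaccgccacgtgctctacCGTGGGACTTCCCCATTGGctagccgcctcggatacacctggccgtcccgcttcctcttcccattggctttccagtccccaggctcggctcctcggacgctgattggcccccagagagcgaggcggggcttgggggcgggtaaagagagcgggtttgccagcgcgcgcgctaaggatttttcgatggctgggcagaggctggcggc
Hspa5: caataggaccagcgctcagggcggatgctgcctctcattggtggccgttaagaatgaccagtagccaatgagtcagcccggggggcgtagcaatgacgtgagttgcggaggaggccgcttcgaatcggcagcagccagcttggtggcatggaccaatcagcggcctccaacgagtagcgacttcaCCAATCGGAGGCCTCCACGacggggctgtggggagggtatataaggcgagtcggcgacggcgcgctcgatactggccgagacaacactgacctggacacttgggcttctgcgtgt
Creld2: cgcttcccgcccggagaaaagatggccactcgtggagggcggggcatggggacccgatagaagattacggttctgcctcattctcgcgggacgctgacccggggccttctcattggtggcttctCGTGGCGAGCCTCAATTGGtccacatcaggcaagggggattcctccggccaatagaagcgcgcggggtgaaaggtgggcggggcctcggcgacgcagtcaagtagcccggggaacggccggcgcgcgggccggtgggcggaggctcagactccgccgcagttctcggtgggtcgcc

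ERSE letters occurred in the windows of 29 genes (0.171%), of which 13 were called higher, 0 lower and 16 were not called. Of these 29 genes, 17 were not dim, and 12 of the 17 were called higher, beside 15.4% of all genes that were not dim. The 12 are Derl3, Creld2, Hspa5, the predicted gene Gm20560, Pdia6, Dnajc3, Ero1b, Hsp90b1, Syvn1, Alg12, Calr and Canx, and apart from the predicted gene each has a known role in ER folding, glycosylation or degradation. They are named because of the match and not by size. Their rises span 0.19 (Canx) to 3.05 (Derl3). The other 5 that were not dim and not called are Hnrnpa3, Pan2, Zfp57, Xlr3a and Spats2l. The matched letters of 7 of the genes called higher follow, read on the strand that holds them, with the fixed letters of the element in capitals. They lie at chr12:17266491-17266509 (Pdia6), chr14:118937827-118937845 (Dnajc3), chr13:12565682-12565700 (Ero1b), chr10:86705533-86705551 (Hsp90b1, which holds another match), chr19:6046532-6046550 (Syvn1), chr8:84847075-84847093 (Calr) and chr11:50325800-50325818 (Canx).
Pdia6: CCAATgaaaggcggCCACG
Dnajc3: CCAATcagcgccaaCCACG
Ero1b: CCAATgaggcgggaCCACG
Hsp90b1: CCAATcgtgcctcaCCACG
Syvn1: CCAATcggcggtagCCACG
Calr: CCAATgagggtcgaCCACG
Canx: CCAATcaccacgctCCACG

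Creld2 and Alg12 are divergent neighbours and share 1 match, so the 12 genes are not 12 independent sites. Within the lists, 7 of 26 chaperone genes with a window (26.9%) and 2 of 26 degradation genes (7.69%) held the element. The 8-letter core TGACGTGG, bound by spliced XBP1 or ATF6, was in 2.09% of windows of genes called higher, 0.588% of those called lower and 0.865% of all, and in 5 of 40 windows of the transport list (12.5%), those of Sec23a, Sec24d, Copb1, Copb2 and Kdelr3. The ERSE-II letters ATTGGNCCACG were in 9 windows, 3 of genes called higher and 2 of genes called lower. A match is a description of the letters and not evidence of binding.

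**Figure D3:**
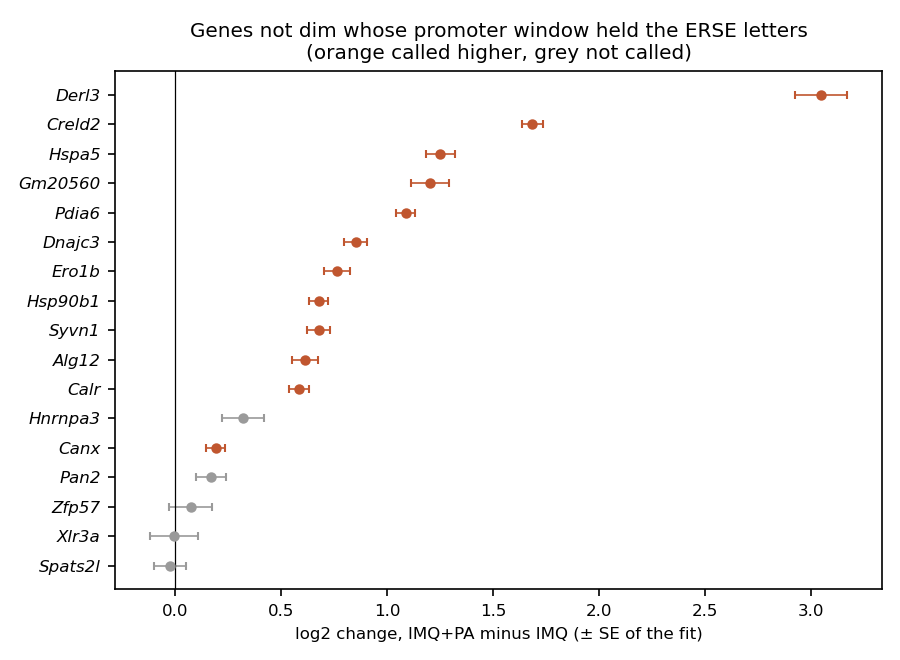
Log2 change (IMQ+PA minus IMQ, points, with bars for the SE of the fit) of the 17 genes that were not dim and whose promoter window held the ERSE letters. The 12 called higher (orange) span 0.19 to 3.05 and the 5 not called (grey) lie between -0.02 and 0.32.

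The sensors and effectors of the unfolded protein response did not move one way. Of 26 measured genes, 10 were called higher and 9 lower (median 0.02, 73.1% called, beside 27% of genes not dim). Xbp1, whose array signal does not separate spliced from unspliced mRNA, read 10.35, 10.37, 10.32 and 10.35 and then 10.43, 10.49, 10.45 and 10.39. Its change of 0.09 ± 0.05 was not called (adjusted p = 0.229), except with a variance trend and robust moderation (0.0293). Among the membrane-bound factors, Creb3l2 rose (1.12 ± 0.07, adjusted p = 6.03e-06) and Creb3l1 fell (-1.05 ± 0.10, adjusted p = 7.1e-05). Dnajc3, a BiP cochaperone (0.85 ± 0.05), and the ER membrane protein Wfs1 (0.77 ± 0.09) rose. Ddit3, which encodes the stress factor CHOP, read 8.45, 8.48, 8.62 and 8.60 against 9.10, 9.06, 9.20 and 8.99, a 1.46-fold rise (0.55 ± 0.07, adjusted p = 0.000393), and Atf3 rose 1.52-fold (0.60 ± 0.05, adjusted p = 3.34e-05).

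Calls among amino acid supply genes under ATF4 were mostly lower. Of all genes 7.92% were called lower, and of those not dim 27% were called in either direction. Of the 28 amino acid genes measured, 12 were called lower, 4 higher and 12 not called (median -0.22, 57.1% called). The log2 of their summed levels overlapped between the groups, at 13.81 to 13.88 in both. Asns, asparagine synthetase, read 9.70, 9.77, 9.69 and 9.59 in the IMQ arrays and 8.82, 8.73, 8.81 and 8.78 in the IMQ+PA arrays, a fall of 1.87-fold (-0.90 ± 0.06, adjusted p = 6.23e-06) without overlap. The cysteine-making enzyme Cth (-1.29 ± 0.15) and the secreted glycoprotein Stc2 (-1.06 ± 0.09) fell, while Ddit4, an inhibitor of mTORC1, rose (0.80 ± 0.08). Atf4 itself, which is controlled largely in translation, changed by -0.18 ± 0.05 (adjusted p = 0.0336), and this call was lost without any 1 of the 8 arrays except IMQ replicate 4 (adjusted p from 0.0507 to 0.0889). Trib3, an ATF4 and CHOP target, read 8.12, 7.73, 7.95 and 7.83 and then 7.73, 7.68, 7.71 and 7.63, with overlap and no call (-0.22 ± 0.08, adjusted p = 0.11). Trib3 was called lower in the 16-array fit (adjusted p = 0.0468), with repeated quantile normalization (0.035) and with robust moderation (0.022). Of 17 aminoacyl tRNA synthetases, also targets of ATF4, 8 were lower and 2 higher (median -0.16, 58.8% called). Yars (-0.52 ± 0.07), Rars (-0.44 ± 0.05) and Gars (-0.43 ± 0.05) led the falls.

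The Asns promoter is shown because it holds the letters TGATGNAA of the C/EBP-ATF response element, through which ATF4 acts, in capitals (chr6:7693160-7693459, minus strand, shown 5′ to 3′ on the gene's strand).
Asns: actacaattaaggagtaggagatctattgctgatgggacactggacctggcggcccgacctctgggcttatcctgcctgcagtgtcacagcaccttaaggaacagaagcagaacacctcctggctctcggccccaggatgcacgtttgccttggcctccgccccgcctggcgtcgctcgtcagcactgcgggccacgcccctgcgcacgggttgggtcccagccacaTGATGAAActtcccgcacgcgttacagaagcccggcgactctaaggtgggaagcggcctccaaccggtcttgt
These letters were in 8 of 24 windows of the amino acid list (33.3%), 3.92% of all windows, 4.63% of windows of genes called lower and 2.67% of those called higher. The other 4 motifs searched were described in the same way. Windows of genes called higher held the cyclic AMP element TGACGTCA in 3.83% (2.65% of all), the NRF2-type core TGACNNNGC in 17.9% (14.9%), the sterol element TCACNCCAC in 1.74% (1.43%) and the AP-1 letters TGACTCA in 6.55% (5.54%). In windows of genes called lower the shares of these motifs were 2.5%, 16.2%, 1.54% and 5.74%, in the same order. There, too, all but the cyclic AMP element exceeded the share of all windows. Overlapping matches of different motifs were each counted.

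**Figure D4:**
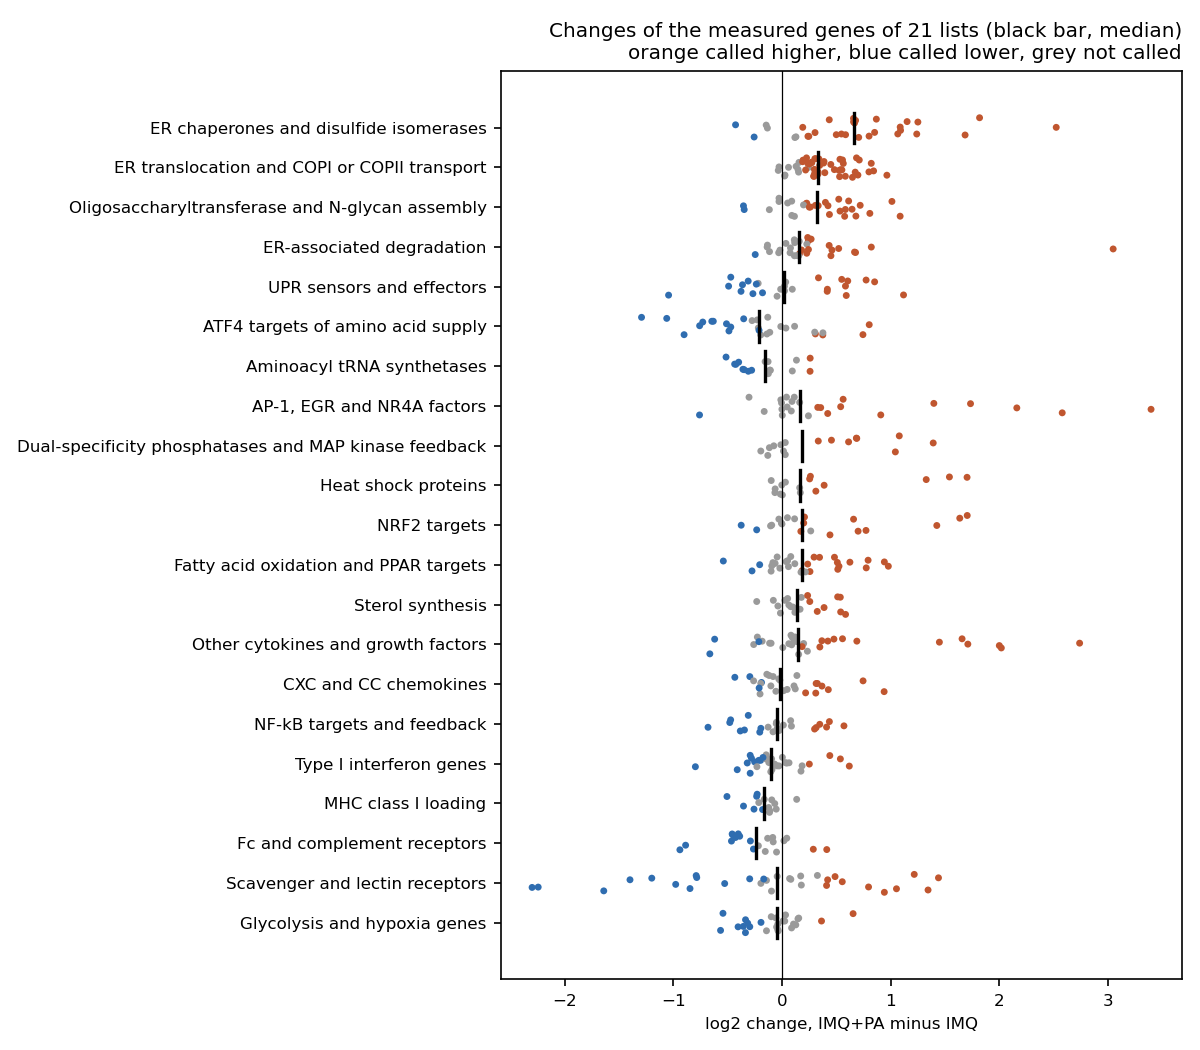
Log2 change (IMQ+PA minus IMQ) of every measured gene of 21 lists, 1 row per list, with called genes in orange (higher) or blue (lower), genes not called in grey and the median as a black bar. The ER chaperone row has the highest median (0.66) and the row of Fc and complement receptors the lowest (-0.24).

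Cytokine genes split within families. In the IL-12 and IL-23 family 4 of 9 genes were higher and 3 lower (77.8% called, beside 27% of genes not dim). Besides Il23a, Il12b, the subunit shared by IL-12 and IL-23, rose 1.47-fold, from 11.25, 11.20, 11.26 and 11.20 to 11.79, 11.76, 11.78 and 11.81 (0.55 ± 0.05, adjusted p = 4.29e-05). Il12a, which joins Il12b to make IL-12, moved the other way, from 10.32, 10.28, 10.42 and 10.39 to 9.82, 9.88, 9.88 and 9.96 (-0.47 ± 0.06, adjusted p = 0.000393). None of these 3 genes has overlapping groups, and the receptor genes Il12rb2 (0.82 ± 0.06) and Il23r (0.63 ± 0.09) rose as well. The fall of Il12a was not called in a fit to all 16 arrays (adjusted p = 0.238). That fit gives the same change, but its error takes in the spread of the arrays without imiquimod.

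Of the other inflammatory cytokines, Tnf read 11.35, 11.45, 11.43 and 11.31 and then 10.67, 10.81, 10.81 and 10.76, a fall of 1.54-fold (-0.62 ± 0.06, adjusted p = 8.75e-05). Il6 rose 1.27-fold (0.35 ± 0.05, adjusted p = 0.0019), from between 11.86 and 12.02 to between 12.25 and 12.27, a call that the 16-array fit did not give (adjusted p = 0.835). Il1b read 13.11 to 13.13 in the IMQ arrays and 13.13 to 13.16 in the IMQ+PA arrays (0.02 ± 0.04, adjusted p = 0.804), close to the highest value of the table (13.53). Il10, which restrains inflammation, read 5.86 to 6.38 and 5.70 to 6.04 and was not called (-0.26 ± 0.13, adjusted p = 0.205). In the IL-1 family and inflammasome list, 6 of 20 genes were higher and 4 lower (50% called, beside 27% of genes not dim). The IL-36alpha gene Il1f6 (1.99 ± 0.07), the decoy receptor Il1r2 (1.00 ± 0.05) and Il18 (0.78 ± 0.08) rose and the adaptor Pycard fell (-0.49 ± 0.07).

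Of the 32 genes of the remaining cytokine and growth factor list, 13 were higher and 3 lower (median 0.14, 50% called). Next to Csf3 were the EGF receptor ligand Ereg (2.02 ± 0.07) and the macrophage growth factor Csf1, which went from 7.77, 7.70, 7.81 and 7.59 to 9.72, 9.62, 9.90 and 9.63 (2.00 ± 0.08, adjusted p = 6.23e-07), while Il19 fell (-0.67 ± 0.11). Of 27 chemokines, 8 were higher and 4 lower (median -0.02, 44.4% called, beside 27% of genes not dim). The neutrophil attractant Cxcl5 (0.94 ± 0.05) and the interferon-induced Cxcl10 (0.75 ± 0.07) rose. Cxcl1 had a change of 0.43 ± 0.05 (adjusted p = 0.000294), lost in the 16-array fit (adjusted p = 0.564).

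Calls among immediate early factors and MAP kinase feedback genes were mostly higher. Of 25 AP-1, EGR and NR4A genes, 11 were higher, 1 lower and 13 not called (median 0.16), and of 16 MAP kinase feedback genes 8 were higher and 0 lower (median 0.18), where the other 8 missed the threshold. Nr4a1 read 7.01, 6.79, 7.04 and 6.70 in the IMQ arrays and 9.30, 9.51, 9.57 and 9.48 in the IMQ+PA arrays, and Nr4a2 rose by 2.16 ± 0.08. Batf, an AP-1 partner of dendritic cells and T cells, fell (-0.76 ± 0.06, adjusted p = 3.34e-05). The MAP kinase phosphatases Dusp5 (1.39 ± 0.07), Dusp14 (1.08 ± 0.09) and Dusp10 (1.04 ± 0.13) rose. Of 16 heat shock genes 7 were higher and 0 lower (median 0.17), with 9 not called. Hspa1b (1.70 ± 0.08) and Hspa1a (1.54 ± 0.10), near-identical genes that an array may not separate, and Hsph1 (1.33 ± 0.06) led them. The share called was 48% for AP-1, EGR and NR4A genes, 50% for MAP kinase feedback genes and 43.8% for heat shock genes. Beside these, 27% of all genes that were not dim were called, and 15.4% were called higher.

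Sensors and feedback of the innate response moved in both directions, with several lower. Tlr7, the receptor of imiquimod, read 9.21, 9.25, 9.25 and 9.24 in the IMQ arrays and 8.33, 8.40, 8.45 and 8.51 in the IMQ+PA arrays, a fall of 1.76-fold without overlap (-0.82 ± 0.05, adjusted p = 9.76e-06). In the Toll-like receptor list 6 of 23 genes were higher and 4 lower (43.5% called, beside 27% of genes not dim). The adaptor Ticam2 fell (-1.07 ± 0.06) whereas its partner Ticam1 rose (0.44 ± 0.07), as did the coreceptors Cd36 (0.94 ± 0.05) and Cd14 (0.48 ± 0.05). Of 24 NF-kB targets and feedback genes, 6 were higher and 8 lower (58.3% called). Irak3, a brake on Toll-like receptor signals, fell most (-0.68 ± 0.06), with Bcl3 (-0.48 ± 0.06) and Tnip1 (-0.47 ± 0.05) next. Ptgs2, which encodes cyclooxygenase COX-2, rose (0.57 ± 0.05, adjusted p = 6.3e-05). The 16-array fit gave the same change without a call (adjusted p = 0.715). Of 33 type I interferon genes, 10 were lower and 4 higher (median -0.10, 42.4% called). Ifi205 (-0.80 ± 0.05, not called in the 16-array fit, adjusted p = 0.128), Ifit2 (-0.41 ± 0.08) and Usp18 (-0.32 ± 0.06) fell, and the antiviral enzyme Rsad2 rose (0.62 ± 0.05).

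Proteins that speak to T cells changed in a mixed way. Of 26 costimulation and maturation genes, 8 were higher and 6 lower (median -0.07, 53.8% called, beside 27% of genes not dim). The inhibitory receptor Havcr2 (TIM-3) read 5.61, 5.34, 5.31 and 5.40 and then 7.79, 7.61, 7.82 and 7.50 (2.27 ± 0.09, adjusted p = 7.73e-07), and Cd86 (0.97 ± 0.06) and Tnfsf4, the ligand of OX40 (0.97 ± 0.05), rose. Icosl, the ligand of ICOS, fell (-0.96 ± 0.06), and the lymph node homing receptor Ccr7 rose from between 11.16 and 11.25 to between 11.43 and 11.53 (0.25 ± 0.05, adjusted p = 0.00804). With Lrrc32, the integrin subunits Itgb8 (1.56 ± 0.07) and Itgav (0.90 ± 0.05), which together release active TGF-beta from its latent form, rose, whereas the TGF-beta induced matrix gene Tgfbi fell (-1.57 ± 0.06). In that latent TGF-beta list 6 of 20 genes were higher and 3 lower (median 0.04, 45% called).

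Antigen presentation genes were considered by MHC class. Of 15 MHC class I loading genes 6 were lower and 0 higher (median -0.16, 40% called, beside 27% of genes not dim). The peptide trimmer Erap1 (-0.51 ± 0.06), H2-T23 (-0.36 ± 0.06) and the immunoproteasome subunit Psmb10 (-0.26 ± 0.05) led the falls. Of 14 MHC class II genes, none of them dim, 2 were lower and 12 were not called, a share of 14.3% beside 27% of all genes that were not dim, so these calls are no result about the class. They were H2-DMa (-0.43 ± 0.07) and H2-Oa (-0.27 ± 0.07, adjusted p = 0.0264), whose call was lost without any 1 of 5 arrays (adjusted p from 0.0557 to 0.0721). Of 20 Fc and complement genes 10 were lower and 2 higher (median -0.24, 60% called). Among the lower were the anaphylatoxin receptor C3ar1 (-0.94 ± 0.06) and the high-affinity IgG receptor Fcgr1 (-0.89 ± 0.06), and Fcgr4 rose (0.41 ± 0.07).

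Scavenger and lectin receptors changed often and in both directions, with 10 of 31 higher and 12 lower (median -0.05). Called members made up 71%, beside 27% of all genes that were not dim. Clec7a, the beta-glucan receptor dectin-1, read 10.47, 10.42, 10.50 and 10.43 in the IMQ arrays and 11.89, 11.84, 11.90 and 11.94 in the IMQ+PA arrays (1.44 ± 0.05, adjusted p = 3.76e-07). The scavenger receptors Msr1 (-0.79 ± 0.05) and Marco (-0.53 ± 0.06) fell. Of 22 chemokine and adhesion receptors 7 were lower and 3 higher (median -0.11, 45.5% called). Both chains of the integrin LFA-1 fell, with Itgal going from 10.26, 10.19, 10.25 and 10.20 to 8.95, 9.08, 8.92 and 8.97 (-1.24 ± 0.05, adjusted p = 9.75e-07) and Itgb2 by less (-0.62 ± 0.05), while Ccrl2 rose (0.94 ± 0.05).

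Among lipid genes, calls were mostly higher for fatty acid oxidation and sterol synthesis. Of 30 genes of fatty acid oxidation and PPAR targets 14 were higher and 3 lower (median 0.18). Among them 56.7% were called, beside 27% of all genes that were not dim. Cpt1a, the enzyme that commits fatty acids to mitochondrial oxidation, read 7.72, 7.77, 7.84 and 7.64 and then 8.69, 8.63, 8.79 and 8.77 (0.98 ± 0.06, adjusted p = 7.18e-06). Angptl4, an inhibitor of lipoprotein lipase and a PPAR target, rose less evenly, from 5.46, 4.95, 4.90 and 5.30 to 5.86, 5.83, 6.32 and 5.69 (0.77 ± 0.16, adjusted p = 0.0102). Acaa2 rose (0.79 ± 0.06) and the fatty acid carrier Fabp5 fell (-0.54 ± 0.08).

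In the lipid droplet list 9 of 25 genes were higher and 5 lower (median -0.02, 56% called, beside 27% of genes not dim). Hilpda, which blocks the breakdown of stored triglyceride, rose most, from 8.20, 8.18, 8.14 and 8.27 to 10.68, 10.64, 10.69 and 10.55. The droplet coat protein Plin2 rose 1.81-fold (0.85 ± 0.06, adjusted p = 1.08e-05). The enzymes of the last step of triglyceride synthesis went opposite ways, since Dgat1 rose (0.58 ± 0.07) and Dgat2 read 10.91, 10.88, 10.88 and 10.85 against 9.32, 9.41, 9.12 and 9.29 (-1.60 ± 0.07, adjusted p = 7.88e-07).

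Of 20 sterol synthesis genes 8 were higher and 0 lower, with 12 not called (median 0.14, 40% called). Insig1 (0.58 ± 0.05), Sqle (0.54 ± 0.06) and Fdps (0.54 ± 0.07) were among the higher. In the list of cholesterol efflux genes and targets of LXR, the receptor that senses oxysterols, 5 of 14 genes were lower and 3 higher (57.1% called). Besides Ch25h, which makes such an oxysterol, the cholesterol exporter Abcg1 (-0.85 ± 0.05) and Apoc2 (-0.76 ± 0.07) fell. Of 18 genes of fatty acid synthesis and desaturation 4 were lower and 2 higher (33.3% called, beside 27% of genes not dim). The desaturase Scd1, which turns saturated into monounsaturated fatty acids, fell (-0.70 ± 0.06) and acetyl-CoA synthetase Acss2 rose (0.85 ± 0.07). Also called lower were Acaca and Fads2, but not with the replicate number as a block or with equal array medians. Without some single arrays these calls were lost too. Of 30 sphingolipid genes, Sptssb included, 5 were higher and 6 lower (median -0.05, 36.7% called). Among the lower were the phosphatase Sgpp1 (-0.42 ± 0.06) and the ceramide synthase Cers5 (-0.40 ± 0.07).

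Antioxidant genes under NRF2 rose in 10 of 20 cases and fell in 2 (median 0.19, 60% called, beside 27% of genes not dim). Gclc, the rate-limiting enzyme of glutathione synthesis, read 8.18, 8.04, 8.14 and 7.88 and then 9.76, 9.73, 9.78 and 9.78, a 3.26-fold rise (1.70 ± 0.07, adjusted p = 7.73e-07). Nqo1 (1.64 ± 0.07) and Srxn1 (1.42 ± 0.06) rose by similar amounts, Hmox1, which degrades heme, by less (0.44 ± 0.05, adjusted p = 0.00039), and Osgin1 fell (-0.38 ± 0.08). Glycolysis and hypoxia genes were lower in 9 of 26 and higher in 2 (median -0.05, 42.3% called). Pfkfb3 (-0.57 ± 0.06), Egln1 (-0.54 ± 0.06) and Pdk1 (-0.41 ± 0.08) were lower and Eno2 was higher (0.65 ± 0.05).

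Secreted enzymes and mediators moved both ways. Of 24 matrix genes 9 were higher and 6 lower (62.5% called, beside 27% of all genes that were not dim). The urokinase Plau (1.24 ± 0.11) and Mmp10 (1.15 ± 0.11) were higher after Mmp19, and the gelatinase Mmp2 was lower (-1.53 ± 0.06). Of 26 genes of eicosanoids and nitric oxide 11 were higher and 3 lower (53.8% called). Odc1, the first enzyme of polyamine synthesis, rose with the widest spread among genes named here as rising by over 2 on the log2 scale, from 7.53, 6.79, 7.21 and 7.40 to 9.50, 8.84, 9.13 and 9.49 (2.01 ± 0.19, adjusted p = 8.79e-05). The prostaglandin D synthase Hpgds (1.36 ± 0.09) and arginase Arg1 (0.95 ± 0.07) rose, and the thromboxane synthase Tbxas1 fell (-0.70 ± 0.05). Nucleotide receptors fell in 5 of 14 purinergic genes, with P2ry6 at -0.89 ± 0.06 and P2ry2 at -0.82 ± 0.08. Among the 2 higher calls of that list (50% called) was Entpd1 (CD39), which removes extracellular ATP (1.29 ± 0.05).

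The change with palmitic acid was then set against its change without imiquimod, in 1 model over all 16 arrays whose interaction term is the first change minus the second. This asks whether the fatty acid acted differently in stimulated cells. The interaction was called for 3014 genes (13.6%), or for 1205 without 5 arrays lacking imiquimod that read high in inflammatory genes, namely mock replicates 1 to 3 and PA replicates 3 and 4. In those 5 arrays Il6 read 7.57, 7.90, 7.71, 7.43 and 8.22, and in the other 3 arrays without imiquimod at most 4.32. Leaving them out keeps 1 mock array and 2 PA arrays, so the lone mock array is assumed to vary like the others. The genes given below were in part chosen for a large change with imiquimod, which enters the interaction, so their calls are a description.

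Lrrc32 was high in both groups without imiquimod. It read 8.80, 8.71, 8.91 and 8.83 in mock arrays and 8.78, 8.80, 8.74 and 8.85 in PA arrays, against 5.36 to 5.96 with imiquimod alone and 9.23 to 9.44 with both, so the IMQ arrays are the ones that stand apart. Its palmitic acid change was -0.02 ± 0.10 without imiquimod and 3.71 ± 0.13 with it (interaction 3.73 ± 0.15, adjusted p = 3.36e-10, and 3.75 without the 5 arrays). Sirpb1c (mock mean 9.18, PA mean 9.17) and Sirpb1a (11.2 and 11.1) had interactions of -2.97 ± 0.19 and -2.18 ± 0.08, and in both genes the IMQ+PA arrays lay below the other 3 groups. Il23a read 4.35 to 4.76 in mock arrays and 4.33 to 4.63 in PA arrays, all below the dim level, so that its interaction has no exact size. The fitted value for Il23a was 3.05 ± 0.16 (adjusted p = 3.95e-09, and 3.43 without the 5 arrays). Ch25h read 7.91 to 8.13 in mock arrays and 7.90 to 8.11 in PA arrays, close to its IMQ+PA level, and had an interaction of -2.17 ± 0.08 (adjusted p = 3.32e-10).

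Derl3 rose by 0.73 ± 0.12 without it (adjusted p = 0.00352) and had an interaction of 2.31 ± 0.16 (adjusted p = 1.19e-07), and Fos rose by 1.00 ± 0.07 with an interaction of 2.39 ± 0.10. Hspa5 had a change of 0.20 ± 0.06 without imiquimod, which was not called, and an interaction of 1.05 ± 0.08 (adjusted p = 4.93e-07). Atf4 went up without imiquimod (0.31 ± 0.04, adjusted p = 0.0012) and down with it, an interaction of -0.49 ± 0.06 (adjusted p = 4.06e-05). Tnf had an interaction of -0.81 ± 0.11 and Tlr7 of -0.81 ± 0.07.

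For the lipid genes Cpt1a and Plin2 the interaction was not called. The change of Cpt1a was 1.08 ± 0.05 without and 0.98 ± 0.06 with imiquimod (interaction -0.10 ± 0.08, adjusted p = 0.466), and that of Plin2 was 1.03 ± 0.05 and 0.85 ± 0.06 (interaction -0.18 ± 0.07, adjusted p = 0.114). Angptl4 rose from 6.15 to 6.39 in mock arrays to 8.74 to 8.86 in PA arrays, and its rise was smaller with imiquimod (interaction -1.76 ± 0.19, adjusted p = 7.73e-06). The interactions of Il12b (0.57 ± 0.17, adjusted p = 0.0353) and Ddit3 (0.31 ± 0.10, adjusted p = 0.045) were each lost without 12 single arrays in turn (adjusted p up to 0.0751 and 0.0931), and those of Il12b, Ddit3, Trib3, Hmox1 and Ccr7 without the 5 arrays. Il6 had an interaction of 1.28 ± 1.25 that was not called, and a fitted value of 0.61 without the 5 arrays. Those arrays were set apart for reading high in inflammatory genes, Il6 among these, so the second value follows a selection on Il6. The arrays kept without imiquimod read at most 4.32 in Il6, below the dim level, with a lone mock array. The value of 0.61 therefore has no exact size, and no conclusion is drawn from it.

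**Figure D5:**
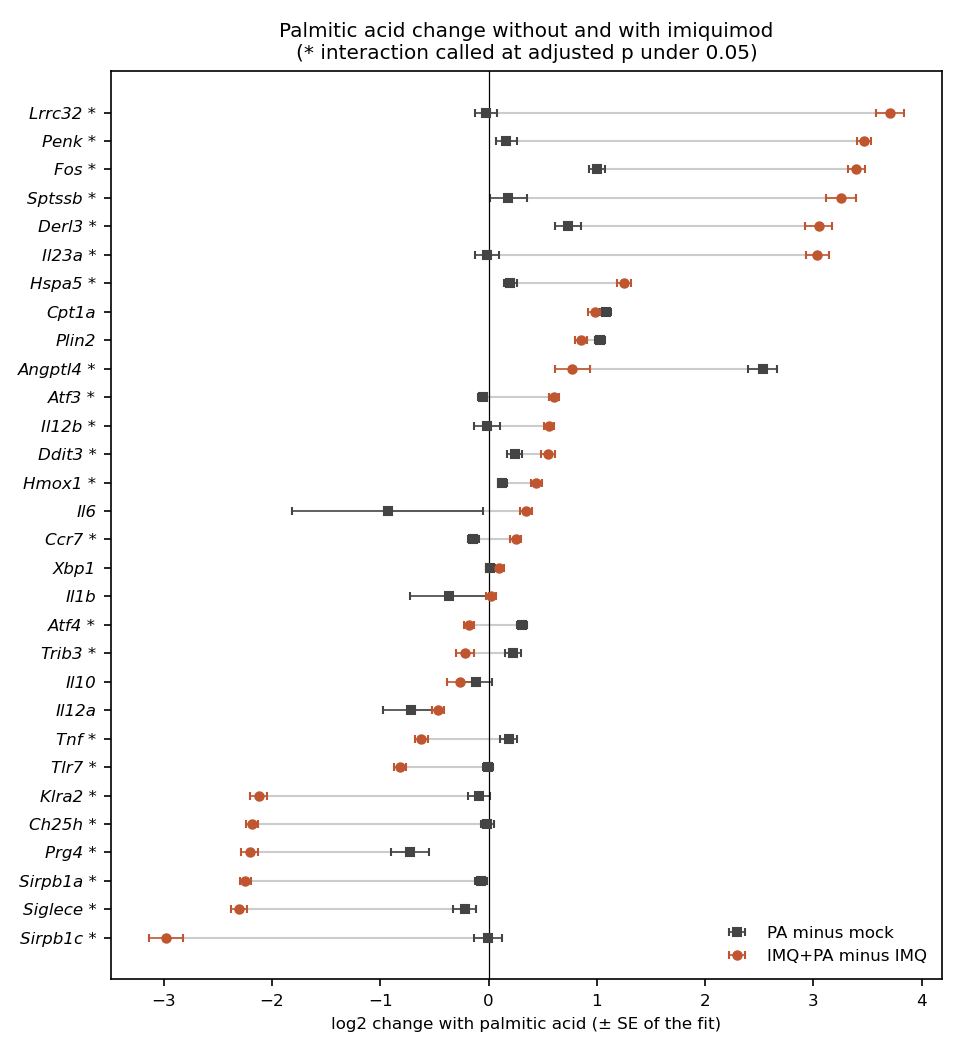
Log2 change with palmitic acid without imiquimod (PA minus mock, grey squares, 16-array fit) and with imiquimod (IMQ+PA minus IMQ, orange circles, 8-array fit) for 30 genes, with bars for the SE of each fit. An asterisk marks an interaction called at adjusted p under 0.05; Lrrc32 has the widest gap (interaction 3.73), and Cpt1a and Plin2 have no call.

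The labelled cell type was checked against markers. Of 14 markers of conventional dendritic cells 4 were called higher and 2 lower (42.9% called, beside 27% of genes not dim). Only Xcr1 of the 14 was dim. The log2 of their summed levels was 13.33 to 13.38 in the IMQ arrays and 13.45 to 13.47 in the IMQ+PA arrays. The transcription factor Irf4 (0.45 ± 0.06) and Cd24a (0.37 ± 0.05) rose and the growth factor receptor Flt3 fell (-0.34 ± 0.06). Zbtb46 was also called higher (0.27), but not in the 16-array fit (adjusted p = 0.108) or with repeated quantile normalization (0.0641). Its call was lost without any 1 of the 8 arrays except IMQ+PA replicate 4 (adjusted p from 0.052 to 0.0957). Of 14 macrophage markers 8 were lower and 3 higher (78.6% called), and Vsig4 and Timd4 were dim. Summed levels of the 14 were 14.40 to 14.46 and then 14.31 to 14.36. Mrc1, the mannose receptor, rose (1.05 ± 0.08) among macrophage markers while Fcgr1, Msr1 and Marco fell, and their part in the falls of surface receptors above was not tested. In bulk RNA, fewer cells of a type and less RNA per cell cannot be told apart.

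Markers of neutrophils, of lymphocytes and of mast cells, basophils and eosinophils were mostly dim, and those of plasmacytoid dendritic cells and erythroid cells were not. Of 12 neutrophil markers 7 were dim, among them Ly6g, S100a9, Mpo and Camp, whereas S100a8, Elane, Ngp, Mmp8 and Csf3r were not. S100a8 was called higher, and Csf3r and the dim Camp were called lower. The call of S100a8 was lost without any 1 of 5 arrays (adjusted p from 0.0524 to 0.0727) and with repeated quantile normalization (0.0724). Summed neutrophil marker levels were 11.22 to 11.30 in the IMQ arrays and 11.14 to 11.24 in the IMQ+PA arrays. For lymphocytes 10 of 11 markers were dim (summed level 7.88 to 8.03 and 7.83 to 7.90), for mast cells, basophils and eosinophils 8 of 12 (7.93 to 8.07 and 8.02 to 8.26) and for plasmacytoid dendritic cells 4 of 8 (11.70 to 11.81 and 11.57 to 11.71), with 0 calls by limma in each of these 3 lists. Of the 4 erythroid markers measured, 1 was dim and Tfrc, the transferrin receptor, was lower (-0.35 ± 0.07).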

How the data were processed

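From each sample, 200 ng of RNA was amplified with the WT PLUS kit for Affymetrix mouse gene arrays, which have a single colour, per the labels' protocols. The authors deposited log2 values made with RMA (background correction, quantile normalization, probe summary), and affy is the other tool in the submitters' processing notes, each with no version. The genome build was not given in the sources used here. Arrays carry no depth, and precision is limited by how many there are.

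Of 41345 probe sets, 23521 had 1 symbol in the platform annotation, 1814 had several and 16010 had none listed, and only the first were used. By gene number 23328 of them were found in RefSeq (GRCm38.p6, names and promoter windows only). Where a gene had several probe sets (1082 genes), the one with the highest mean stood for it. The 8 arrays were fitted with limma 3.58.1 in R 4.3.3 (2 group means, moderated variances, 6 residual and 3.00 prior degrees of freedom), and the interaction on 16 arrays (12 and 2.96). Tests were two-sided, with Benjamini-Hochberg adjustment over 22180 genes and no filter on dim genes. A change toward a mean below the dim level is given as "at least", counted from that level. The steps were tested on simulated data.

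The comparison, the named genes and the 49 gene lists (1178 genes, 1071 measured) were chosen with earlier results of these data known. Named genes were the 15 largest rises and falls among called genes that were not dim and whose arrays did not overlap, leaving out predicted loci, sensory receptors and immunoglobulins, from each list up to 3 called members of the more frequent direction plus 1 of the opposite one, and 21 preset genes: Il23a, Il12a, Il12b, Il1b, Il6, Tnf, Il10, Lrrc32, Derl3, Hspa5, Xbp1, Ddit3, Atf3, Atf4, Trib3, Cpt1a, Plin2, Angptl4, Hmox1, Ccr7 and Tlr7. Interactions are given for the 6 largest rises and falls and the presets. Genes with ERSE letters were named for the match, and list members with another motif likewise. Replicate numbers were not used to pair the arrays in the main fit. Correlations of deviations lay between -0.03 and 0.12 for the same number and between -0.09 and 0.08 for different numbers. The highest, 0.12, was that of replicate 3, and such values cannot show whether arrays of the same number shared a culture. Alternatives were all 16 arrays in 1 fit, the replicate number as a block, equal array medians, repeated quantile normalization, dim genes left out, a variance trend with robust moderation, the mean of a gene's probe sets, and each array left out in turn.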

Additional observations from a re-analysis of the deposited data

Results flagged for a closer look

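The interaction term of the 16-array fit was called for 23 of 30 named genes, beside 13.6% of all genes. Of the 30 genes, 12 were chosen for a large change with imiquimod, a value that enters the interaction, so the count of calls is a description and no support. It was larger with imiquimod for Lrrc32 (difference 3.73), Penk (3.30), Sptssb (3.07), Il23a (3.05), Fos (2.39), Derl3 (2.31), Hspa5 (1.05), Atf3 (0.66), Il12b (0.57), Ccr7 (0.39), Hmox1 (0.32) and Ddit3 (0.31). It was lower with imiquimod for Sirpb1c (-2.97), Sirpb1a (-2.18), Ch25h (-2.17), Siglece (-2.08), Klra2 (-2.03), Angptl4 (-1.76), Prg4 (-1.48), Tlr7 (-0.81), Tnf (-0.81), Atf4 (-0.49) and Trib3 (-0.45). Sptssb lay below the dim level (4.92) in the mock, PA and IMQ groups and Il23a in the mock and PA groups. Siglece (mean 4.85) and Prg4 (mean 4.41) lay below it in the PA group. The differences of these genes are set against background and carry no exact size. Without the 5 arrays lacking imiquimod that read high in inflammatory genes, 18 of the 23 were still called, and Il12b (0.29), Ddit3 (0.40), Trib3 (-0.49), Hmox1 (0.34) and Ccr7 (0.25) were not.

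In 17 of 398 groups of 4 arrays, 1 array lay far from the other 3 relative to the range of its group, where chance gives about 1 in 20. Among genes with large changes, Derl3 was lower in IMQ+PA replicate 2 (9.20, the others from 9.45 to 9.49), Siglece in IMQ replicate 4 (8.29, the others from 8.50 to 8.52) and Prg4 in IMQ replicate 4 (8.84, the others from 8.96 to 8.98). Among stress genes, Stc2 was higher in IMQ+PA replicate 4 (6.52), Rars higher in IMQ+PA replicate 1 (9.75), Nr4a2 lower in IMQ+PA replicate 2 (9.63) and Hsph1 lower in IMQ+PA replicate 2 (9.70). Among immune genes, Psmb10 was lower in IMQ replicate 4 (10.01), C3ar1 higher in IMQ replicate 3 (10.14), Cd24a higher in IMQ replicate 1 (9.56) and Ccr7 higher in IMQ+PA replicate 3 (11.53). Among metabolic and ribosomal genes, Fabp5 was lower in replicate 1 of both groups (9.96 with imiquimod and 9.31 with both agents), Fads2 in IMQ replicate 2 (7.92) and Eno2 in IMQ replicate 1 (6.16), and Rps9 was higher in IMQ replicate 3 (10.68) and Mrpl22 in IMQ replicate 4 (6.35).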

How the results depend on the processing

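The count of 3911 called genes stayed within 1.5 times under every alternative run, from 3019 to 3789 with 1 array left out (1684 to 2164 higher, 1335 to 1625 lower) and up to 4909 with a variance trend and robust moderation. The replicate number as a block gave 3153 calls, 2956 of them shared, and among named genes it ended the calls of Ccl12, H2-Oa, Acaca, Fads2, Mdh2, Mrpl13, Zbtb46 and Atf4 and that of the Il12b interaction. Whether the numbers pair the arrays is not known. Of 195 called named genes 174 kept direction and call in every setting, and 0 of the 199 reversed. The 3014 interaction calls ranged from 2600 to 2896 with 1 array left out and became 1205 without the 5 arrays lacking imiquimod that read high in inflammatory genes, 1102 of them shared. Without those arrays, and with fewer samples, the interactions of Il12a (-0.53) and Il1b (-0.35), not called in either fit, changed sign, and the cause was not tested. Signal close to background limits Il2, Sptssb, P2ry13 and Il23a, the interactions of Siglece and Prg4, and that of Il6 without the 5 arrays.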

Other observations

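Ribosomal and mitochondrial genes were called in small numbers. Of 27 cytosolic ribosomal proteins 5 were lower and 0 higher (median -0.12), with Rps9 at -0.46 ± 0.05, and of 32 mitochondrial ribosomal proteins 3 were higher and 3 lower (median 0.01). Of 35 genes of the respiratory chain and ATP synthase 5 were higher and 1 lower, with the complex III subunit Uqcrfs1 at 0.45 ± 0.05, and of 22 citrate cycle genes 3 were higher and 2 lower, with Idh2 at 0.46 ± 0.06. The share called lay between 17.1% and 22.7% in these 4 lists, of which at most 1 gene each was dim, beside 27% of all genes that were not dim.

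Of 35 cell cycle genes, 5 of them dim, 6 were lower and 3 higher. The share called was 25.7%, near the 27% of all genes that were not dim, so these calls are no result about the cell cycle. Among them the cyclin Ccnd3 fell (-0.76 ± 0.08) and the mitotic kinase gene Cdk1 rose (0.56 ± 0.09). Among p53 targets and BCL2 genes 8 of 26 were higher and 4 lower (46.2% called). The death receptor Fas fell (-0.80 ± 0.06), and the stress genes Gadd45g (0.61 ± 0.06) and Gadd45b (0.50 ± 0.05) and the BH3-only gene Pmaip1 (0.42 ± 0.05) rose. Of 27 genes of the lysosome and its proton pump 10 were higher and 4 lower (51.9% called). The pump subunit Atp6v0d2 (1.30 ± 0.08) and the galactosidase Gla (0.54 ± 0.05) led the rises, while Lamp1 fell (-0.27 ± 0.04).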
